A study of Mus musculus with 12 samples.

Results

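The genes described here are 37 genes of glycolysis and of the response to low oxygen, followed across 4 groups of mouse collecting duct cells. They were chosen by gene symbol, with earlier results of these data known. All 37 were found among the 25208 genes of the deposited table. They comprise 16 glycolytic enzymes, 6 genes of glucose and lactate transport or of glycolytic control, and 15 genes of the hypoxia-inducible factor (HIF) pathway outside glycolysis. RNA was depleted of ribosomal RNA and sequenced from mpkCCDc11 cells, an immortalised line of the mouse kidney collecting duct labelled as wild type. The cells were grown on permeable supports, transfected with siRNA at 50 nM, deprived of serum and hormones for 24 h and then treated for 24 h. The groups were Ctnnb1 siRNA with 1 nM dDAVP, Ctnnb1 siRNA with vehicle, control siRNA with 1 nM dDAVP, and control siRNA with vehicle, with 3 libraries each. All groups share this one cell line, the transfection and the deprivation of serum and hormones, and none was labelled as exposed to low oxygen. Ctnnb1 encodes beta-catenin, a junction protein and a coactivator in Wnt signalling, and dDAVP is an agonist of the vasopressin V2 receptor.

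Glycolysis converts glucose to pyruvate, and lactate dehydrogenase then turns pyruvate to lactate when it does not enter mitochondria. When oxygen is present, the prolyl hydroxylases Egln1 and Egln3 mark HIF transcription factors for breakdown. When stabilised, HIF proteins bind short motifs near many glycolytic genes and near genes for blood vessel growth, mitophagy and collagen modification. In the kidney the medullary collecting duct works at low oxygen and relies on glycolysis, and HIF targets such as Vegfa are also under the control of other pathways.

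Libraries held 32997720 to 48935473 assigned reads, so counting error was small for all but the lowest genes, and 16508 genes were tested. Ctnnb1 averaged 334 ± 8.08 CPM (reads scaled to a common library size) with Ctnnb1 siRNA and dDAVP, 316 ± 14.9 with Ctnnb1 siRNA and vehicle, 791 ± 18.2 with control siRNA and dDAVP and 757 ± 11.5 with control siRNA and vehicle (SD, n = 3 each). All 5 epithelial markers were expressed, at a summed level of 3574 to 4140 TPM (reads scaled by transcript length and library size), and 8 of 11 principal cell markers reached 1 TPM. Of those, the dDAVP-regulated water channel Aqp2 was at 4.94 TPM with Ctnnb1 siRNA and dDAVP, 0.0767 with Ctnnb1 siRNA and vehicle, 8.63 with control siRNA and dDAVP and 0.02 with control siRNA and vehicle. Of other tubule and blood cell types, the intercalated cell marker Atp6v1b1 was at 58.0 to 61.1 TPM by group, the proximal tubule marker Lrp2 at 8.85 to 11.96 TPM and the leukocyte marker Cd68 at 4.47 to 6.25 TPM. The other measured markers of these types were at most 0.167 TPM by group. They were Slc4a1 of intercalated cells, Cubn, Slc5a2 and Slc5a1 of the proximal tubule, and Ptprc of leukocytes. The measured markers of the thick ascending limb, distal convoluted tubule, fibroblasts and endothelium were all under 1 TPM. Replicate 3 of Ctnnb1 siRNA with dDAVP stood apart from its group, with a chi-square per degree of freedom of 41.7 and 67.3 against its mates, compared with 5.27 to 24.5 among all other pairs of replicates. Nothing in the labels states that replicates came from separate cultures, so the p-values measure only the spread between these libraries, which may be technical. In bulk RNA fewer cells of a type and less RNA per cell cannot be told apart.

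Levels between genes were compared in TPM, which is scaled by transcript length. Pyruvate kinase (Pkm) was the most abundant of the 37 genes, with a mean of 1050 TPM over 12 libraries, followed by triosephosphate isomerase (Tpi1) at 725 TPM and aldolase A (Aldoa) at 479 TPM. Gapdh, Ldha, Eno1, Pgk1 and Pgam1 lay between 384 and 234 TPM. The order of these genes is uncertain, because copies of Eno1, Pgam1 and Pgk1 were counted apart. By group, Eno1b was at 99.7 to 106 TPM, Pgam1-ps2 at 94.3 to 106 TPM and Pgk1-rs7 at 31.7 to 35.1 TPM. Of the hexokinases, which carry out the first step of the pathway, Hk1 was at 86.5 TPM and Hk2 at 23.9 TPM. Among isozymes of phosphofructokinase, Pfkl led at 130 TPM, ahead of Pfkm at 31.8 TPM and Pfkp at 24.3 TPM.

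Outside the enzymes, Hif1a, the oxygen-regulated HIF subunit, was the highest at 189 TPM, followed by the mitophagy receptor Bnip3l at 130 TPM and the collagen prolyl hydroxylase P4ha1 at 73.8 TPM. The glucose transporter Slc2a1 averaged 22.2 TPM and the growth factor Vegfa 16.3 TPM. The genes near the floor were the vasodilator peptide gene Adm at 0.477 TPM, the carbonic anhydrase Car9 at 0.174 TPM and the lactate exporter Slc16a3 at 0.0642 TPM. Slc16a3 had 0 to 16 reads per library and did not pass the filter on low counts, so 36 of the 37 genes were tested.

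**Figure D1:**
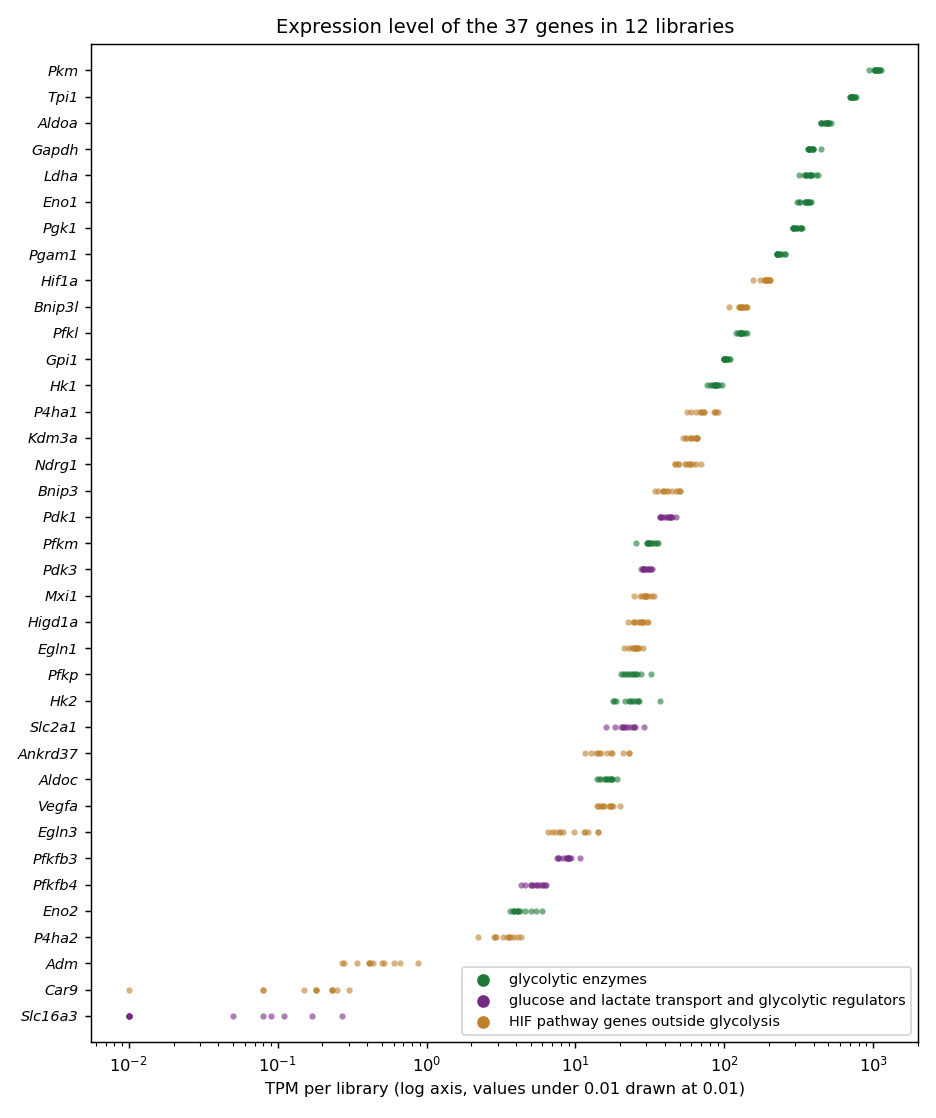
TPM of each of the 37 genes in each of the 12 libraries, on a log axis, ordered by mean level and coloured by role. The most abundant genes are glycolytic enzymes, from Pkm at a mean of 1050 TPM, and Adm, Car9 and Slc16a3 stay under 1 TPM.

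Ctnnb1 siRNA was compared with control siRNA separately under each treatment, so that the pair of comparisons shared no library. With vehicle, 4 of 36 genes were higher with Ctnnb1 siRNA and 0 were lower, against 0.206% of all genes called higher, 0.224% called lower and 0.43% called in either direction. They were Hk2 among the enzymes and Vegfa, Egln3 and P4ha1 among the HIF pathway genes. With dDAVP, 1 of 36 was higher, P4ha1, and 0 were lower, against 0.121% of all genes higher, 0.145% lower and 0.267% in either direction. Fold changes were positive for 35 of 36 genes with vehicle and for 34 of 36 with dDAVP, against 49% and 50.4% of all genes, and the number positive ranged over the alternative settings between 24 and 35 with vehicle and between 27 and 35 with dDAVP. For 33 of 36 genes (91.7%) the fold change was positive under both treatments, against 28% of all genes. The genes were listed with earlier results of these data known, so these counts are not independent support.

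The 3 libraries with Ctnnb1 siRNA all lay above the 3 with control siRNA for 13 genes with vehicle, against 8.95% of all genes, and for 17 genes with dDAVP, against 7.26%. The reverse order occurred for 0 of the genes in either comparison, against 9.26% and 6.02% of all genes. The share of reads from small structural RNA moved with the siRNA in the vehicle groups: it was 2.12% to 2.29% with Ctnnb1 siRNA and 1.32% to 1.94% with control siRNA, while with dDAVP the ranges overlapped, at 1.61% to 3.07% with Ctnnb1 siRNA and 1.67% to 2.5% with control siRNA. Its part in these results was not tested. On log2 of TPM plus 1 the median log2 fold change of the 36 genes was 0.0414 with vehicle, beside a median over all genes of -0.0682, whereas on TMM-scaled counts it was 0.16, beside -0.0029.

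**Figure D2:**
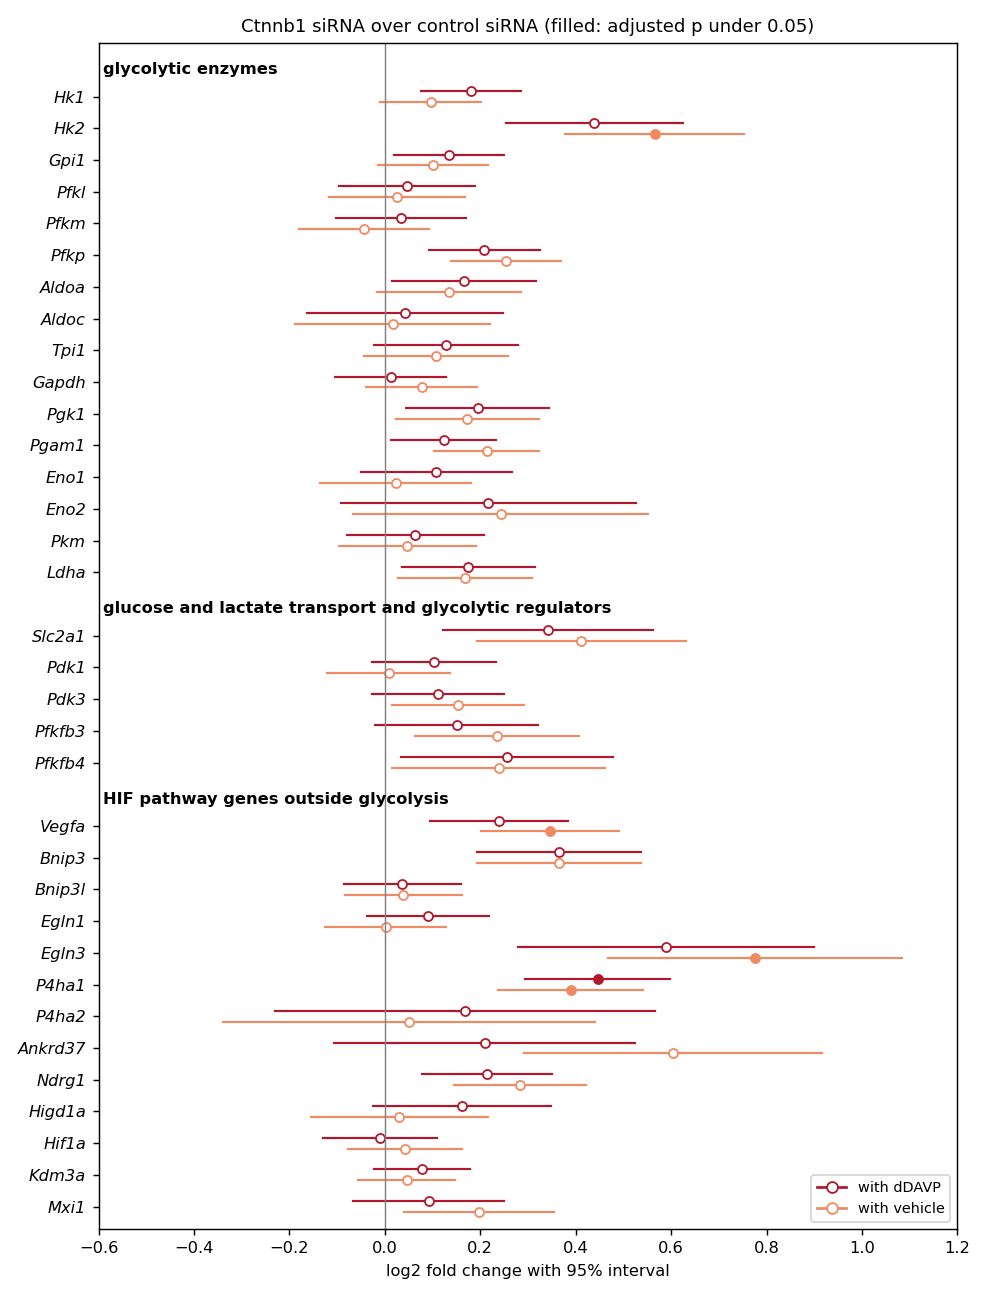
Log2 fold change (x axis, with 95% interval) of Ctnnb1 siRNA over control siRNA for each tested gene, with dDAVP in dark red and with vehicle in orange. Filled points have an adjusted p under 0.05; Adm and Car9 were left out because of their wide intervals. Most points lie to the right of 0, and the filled ones are P4ha1 under both treatments and Hk2, Vegfa and Egln3 with vehicle.

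Among the glycolytic enzymes, the hexokinase Hk2 had the highest fold change under both treatments. Hk2 (chr6:82725025-82774454, GRCm38) is an inducible form of the enzyme that phosphorylates glucose on entry to the cell. Its CPM was 68.8, 74.1 and 74.0 with Ctnnb1 siRNA and vehicle, against 52.4, 47.1 and 47.1 with control siRNA and vehicle. With dDAVP it was 79.4, 74.8 and 100.7 with Ctnnb1 siRNA, against 61.9, 63.0 and 63.3 with control siRNA. Every library with Ctnnb1 siRNA was above every library with control siRNA, and control siRNA with vehicle was the lowest group. The rise with vehicle was 1.48-fold (log2 0.57, SE 0.088, adjusted p = 0.00867, edgeR's quasi-likelihood test with Benjamini-Hochberg adjustment), and the adjusted p was 0.0528 with dDAVP (log2 0.44, SE 0.087). The call with vehicle was lost without replicate 2 or 3 of control siRNA with vehicle (adjusted p 0.0678 and 0.0741) or replicate 3 of Ctnnb1 siRNA with vehicle (0.0555). It was also lost on log2 of TPM plus 1 and plus 0.1, and held in 18 of 23 alternative settings.

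The other 15 enzymes passed in neither comparison. Phosphofructokinase Pfkp had 107, 105 and 96.1 CPM with Ctnnb1 siRNA and dDAVP and 104, 107 and 108 CPM with Ctnnb1 siRNA and vehicle, against 88.1, 87.7 and 90.8 CPM with control siRNA and dDAVP and 94.9, 87.5 and 84.7 CPM with control siRNA and vehicle. The ranges of the siRNAs did not overlap under either treatment, with adjusted p of 0.144 with dDAVP (log2 0.21) and 0.0577 with vehicle (log2 0.25). Pgam1, the phosphoglycerate mutase, had 225, 237 and 219 CPM with Ctnnb1 siRNA and dDAVP and 238, 226 and 243 CPM with Ctnnb1 siRNA and vehicle, against 200.3, 220.3 and 205 CPM with control siRNA and dDAVP and 209, 202 and 198 CPM with control siRNA and vehicle. The siRNAs overlapped with dDAVP and not with vehicle, and the log2 fold change was 0.21 with vehicle (adjusted p = 0.111) and 0.12 with dDAVP (adjusted p = 0.37). Its value is uncertain, because the near-identical copy Pgam1-ps2 was also counted and was higher with vehicle (log2 0.25, adjusted p = 0.0297); Eno1 and Pgk1 likewise have copies that were counted. Pfkl, Pfkm, Aldoc, Gapdh, Eno1 and Pkm had log2 fold changes between -0.04 and 0.11 under both treatments.

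Summed over the 16 enzymes, the level was 4747 ± 249.5 CPM with Ctnnb1 siRNA and dDAVP, against 4383 ± 198 CPM with control siRNA and dDAVP. With vehicle the sums were 4602 ± 165 CPM with Ctnnb1 siRNA and 4296 ± 254 CPM with control siRNA (SD, n = 3 each). The ranges of the siRNAs overlapped in both pairs, and a two-sided exact permutation test gave p = 0.2 for each, where the smallest possible is 0.1. Reads counted to copies of Eno1, Pgk1 and Pgam1 are not in these sums. The median log2 fold change of the enzymes was 0.13 with dDAVP and 0.10 with vehicle.

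Of the genes of transport and control, 0 of 5 tested passed, although all 5 fold changes were positive under both treatments. Slc2a1, the main basal glucose transporter, had 32.0, 30.6 and 31.9 CPM with Ctnnb1 siRNA and dDAVP, against 20.0, 28.6 and 25.9 CPM with control siRNA and dDAVP. With vehicle it had 37.7, 32.7 and 32.4 CPM with Ctnnb1 siRNA, against 24.2, 27.2 and 25.9 CPM with control siRNA. The siRNAs did not overlap under either treatment, with log2 fold changes of 0.34 (adjusted p = 0.198) with dDAVP and 0.41 (adjusted p = 0.133) with vehicle. The log2 fold changes of Pfkfb3 and Pfkfb4, enzymes that set the level of the phosphofructokinase activator fructose 2,6-bisphosphate, lay between 0.15 and 0.26. For Pdk1 and Pdk3, kinases that switch off pyruvate dehydrogenase, they lay between 0.01 and 0.15.

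Among HIF pathway genes outside glycolysis, P4ha1 passed under both treatments. P4ha1 (chr10:59323197-59373304) encodes the catalytic subunit of a collagen prolyl 4-hydroxylase. It had 147, 144 and 165 CPM with Ctnnb1 siRNA and dDAVP, against 103, 126 and 106 CPM with control siRNA and dDAVP. With vehicle it had 169, 175 and 183 CPM with Ctnnb1 siRNA, against 133, 136 and 134 CPM with control siRNA. The siRNAs did not overlap under either treatment, and the rise was 1.36-fold with dDAVP (log2 0.45, SE 0.0717, adjusted p = 0.0125) and 1.31-fold with vehicle (log2 0.39, SE 0.0714, adjusted p = 0.023). The call with dDAVP was lost without replicate 1 or 3 of control siRNA with dDAVP (adjusted p 0.0815 and 0.124), and in the fit of those 2 groups alone (0.194). It was also lost on each of the 3 TPM scales, and held in 17 of 23 alternative settings. The call with vehicle was lost without any one of the 6 vehicle libraries, at an adjusted p of 0.0732 to 0.135. It was also lost on log2 of TPM plus 1 and plus 0.1, and held in 14 of 23 alternative settings. Its paralogue P4ha2 was much lower, at 3.4 TPM, and did not pass.

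Egln3 (chr12:54178981-54203874), an oxygen-sensing prolyl hydroxylase that is itself a HIF target, had the highest fold change of the called genes. It had 19.1, 19.4 and 15.9 CPM with Ctnnb1 siRNA and vehicle, against 8.91, 12.6 and 10.4 CPM with control siRNA and vehicle. With dDAVP it had 17.5, 11.8 and 15.6 CPM with Ctnnb1 siRNA, against 10.2, 10.4 and 9.24 CPM with control siRNA. All Ctnnb1 siRNA libraries were above their controls under each treatment. The rise with vehicle was 1.71-fold (log2 0.78, SE 0.144, adjusted p = 0.0261), and with dDAVP the adjusted p was 0.117 (log2 0.59). The call with vehicle was lost without replicate 1 or 3 of control siRNA with vehicle (adjusted p 0.127 and 0.143), or replicate 1, 2 or 3 of Ctnnb1 siRNA with vehicle (0.127, 0.132 and 0.0519). It was also lost on log2 of TPM plus 1 and plus 0.1, and held in 14 of 23 alternative settings.

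Vegfa (chr17:46016993-46032377), the vascular endothelial growth factor, had 29.5, 30.3 and 31.5 CPM with Ctnnb1 siRNA and vehicle, against 24.4, 22.9 and 24.5 CPM with control siRNA and vehicle. With dDAVP it had 30.8, 30.3 and 33.4 CPM with Ctnnb1 siRNA, against 28.3, 27.1 and 24.7 CPM with control siRNA. The siRNAs did not overlap under either treatment. The rise with vehicle was 1.27-fold (log2 0.35, SE 0.0683, adjusted p = 0.0367), and with dDAVP the adjusted p was 0.176 (log2 0.24). The call was lost without any one of the 6 vehicle libraries (adjusted p 0.1 to 0.196) or without replicate 1 of Ctnnb1 siRNA with dDAVP (0.0537). It was also lost on log2 of TPM plus 1 and plus 0.1, and held in 12 of 23 alternative settings.

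Other HIF pathway genes did not pass in either comparison of the siRNAs. Bnip3, a mitophagy receptor, had 44.5, 39.5 and 43.1 CPM with Ctnnb1 siRNA and dDAVP and 44.5, 40.3 and 45.9 CPM with Ctnnb1 siRNA and vehicle, against 28.9, 36.0 and 33.9 CPM with control siRNA and dDAVP and 32.1, 35.0 and 34.5 CPM with control siRNA and vehicle. The siRNAs did not overlap under either treatment, with log2 fold changes of 0.37 with dDAVP and 0.36 with vehicle, with adjusted p of 0.0758 and 0.0702. Ndrg1, a differentiation and stress gene, had log2 fold changes of 0.21 with dDAVP (adjusted p = 0.193) and 0.28 with vehicle (adjusted p = 0.081). Ankrd37 had 11.3, 10.7 and 11.5 CPM with Ctnnb1 siRNA and vehicle, against 8.87, 6.26 and 6.77 CPM with control siRNA and vehicle (log2 0.60, adjusted p = 0.111). With dDAVP it had 8.01, 7.54 and 8.74 CPM with Ctnnb1 siRNA, against 6.7, 8.65 and 5.73 CPM with control siRNA, and these overlapped (log2 0.21, adjusted p = 0.621). Hif1a itself had a log2 fold change of -0.01 with dDAVP (95% interval -0.13 to 0.11) and 0.04 with vehicle (-0.08 to 0.16). Its levels overlapped in all groups, at 409 to 460 CPM with Ctnnb1 siRNA and dDAVP, 428 to 455 with Ctnnb1 siRNA and vehicle, 421 to 450 with control siRNA and dDAVP and 403 to 453 with control siRNA and vehicle.

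**Figure D3:**
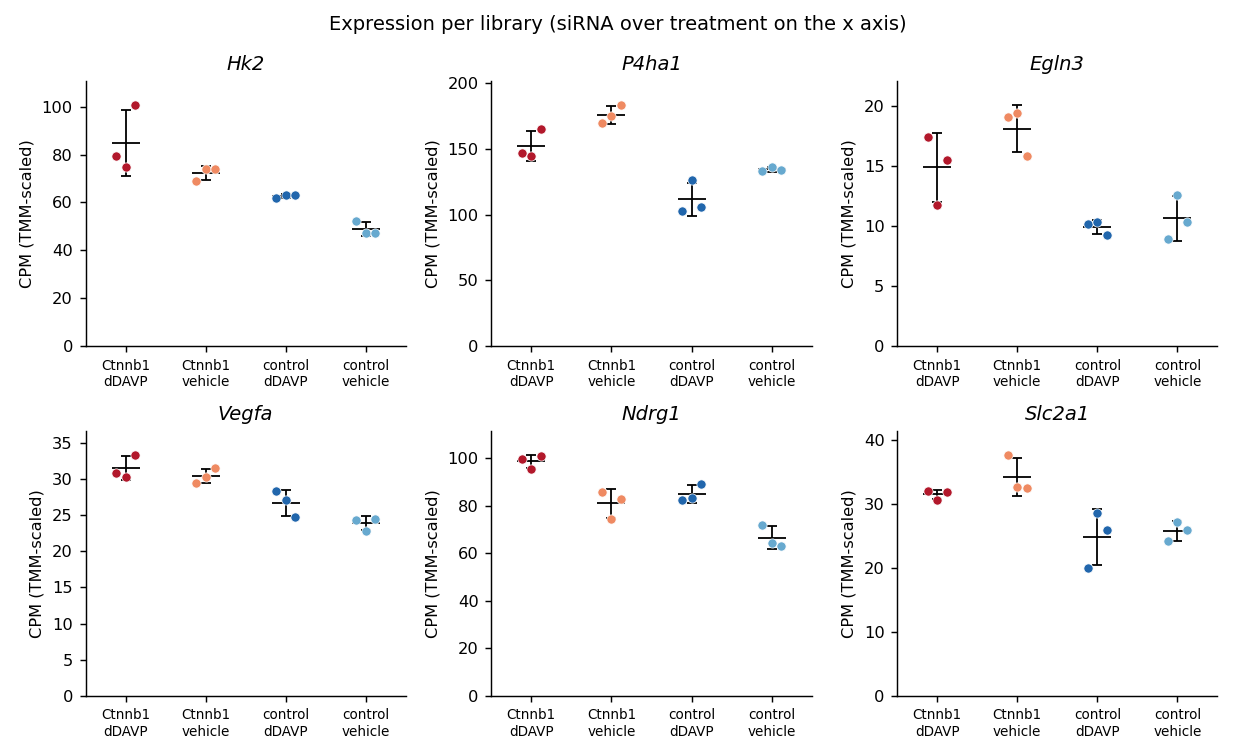
CPM (y axis, TMM-scaled, from 0) of 6 genes in each library (points) with the group mean and SD (black), for Ctnnb1 siRNA with dDAVP, Ctnnb1 siRNA with vehicle, control siRNA with dDAVP and control siRNA with vehicle. For all 6 genes the Ctnnb1 siRNA points lie above the control siRNA points of the same treatment.

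A contrast that averaged the siRNA effect over both treatments was added after the values were seen. It called 9 of 36 genes higher and 0 lower, against 0.939% of all genes higher, 0.909% lower and 1.85% in either direction. Beside Hk2 (1.42-fold, adjusted p = 0.000482), P4ha1 (1.34-fold, adjusted p = 0.000394), Egln3 (1.61-fold, adjusted p = 0.00232) and Vegfa (1.23-fold, adjusted p = 0.0045), it called Pfkp (1.17-fold, adjusted p = 0.00458), Pgam1 (1.12-fold, adjusted p = 0.0261), Slc2a1 (1.3-fold, adjusted p = 0.0127), Bnip3 (1.29-fold, adjusted p = 0.00311) and Ndrg1 (1.19-fold, adjusted p = 0.00861). Hk2, P4ha1 and Egln3 passed under all 22 alternative settings. Slc2a1, Vegfa and Bnip3 passed in 20 of the 22, Pfkp and Ndrg1 in 19 and Pgam1 in 13. The Pgam1 call was lost when any one of 7 libraries was left out (adjusted p 0.062 to 0.0945), namely replicates 2 and 3 of control siRNA with vehicle, 1 and 3 of control siRNA with dDAVP, 1 and 3 of Ctnnb1 siRNA with vehicle and 2 of Ctnnb1 siRNA with dDAVP. Without replicate 3 of Ctnnb1 siRNA with dDAVP, the library that stood apart, 11 genes were called in the average, 8 with vehicle and 3 with dDAVP. The shares of all genes called were also larger in that fit, at 3.6% in the average, 1.08% with vehicle and 1.28% with dDAVP.

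The promoters of the 4 genes called in the siRNA comparisons are shown because HIF binds the core letters ACGTG or GCGTG. Each line is the 250 bases before an annotated start from the RefSeq table of GRCm38.p6, read 5′ to 3′ on the gene's strand, with each core, found on either strand (CACGT or CACGC when reversed), in capitals. The windows are chr6:82774455-82774704 on the minus strand for Hk2, chr10:59323046-59323295 on the plus strand for P4ha1, chr12:54203875-54204124 on the minus strand for Egln3 and chr17:46032378-46032627 on the minus strand for Vegfa.
Hk2: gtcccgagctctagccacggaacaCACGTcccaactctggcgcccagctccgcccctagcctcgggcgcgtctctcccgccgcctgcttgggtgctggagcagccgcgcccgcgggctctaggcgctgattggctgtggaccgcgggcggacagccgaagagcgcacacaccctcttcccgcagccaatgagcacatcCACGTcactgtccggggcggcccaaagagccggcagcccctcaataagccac
P4ha1: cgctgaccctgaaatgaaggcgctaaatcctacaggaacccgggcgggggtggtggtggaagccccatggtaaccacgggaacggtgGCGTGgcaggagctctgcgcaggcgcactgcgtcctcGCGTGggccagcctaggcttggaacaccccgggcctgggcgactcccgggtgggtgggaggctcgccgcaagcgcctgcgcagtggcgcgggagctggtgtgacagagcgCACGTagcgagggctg
Egln3: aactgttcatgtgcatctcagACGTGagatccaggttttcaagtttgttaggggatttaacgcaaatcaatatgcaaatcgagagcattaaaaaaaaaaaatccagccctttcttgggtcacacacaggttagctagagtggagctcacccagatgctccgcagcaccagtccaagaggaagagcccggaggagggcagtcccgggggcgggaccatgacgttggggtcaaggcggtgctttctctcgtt
Vegfa: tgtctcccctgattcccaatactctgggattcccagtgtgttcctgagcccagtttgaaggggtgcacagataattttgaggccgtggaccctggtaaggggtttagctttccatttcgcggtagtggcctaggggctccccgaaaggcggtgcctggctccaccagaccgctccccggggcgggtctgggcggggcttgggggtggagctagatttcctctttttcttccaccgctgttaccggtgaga

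The Hk2 window holds 2 cores, whose first bases lie 226 and 52 bases before the start, and the P4ha1 window holds 3, at 163, 126 and 16 bases. The Egln3 window holds 1, at 229 bases, and these letters are not in the Vegfa window shown. A second annotated Vegfa start inside the gene has a window (chr17:46025164-46025413, minus strand) that holds 2 cores, at 218 and 211 bases. That window lies wholly within the span of the gene, and whether it acts as a promoter was not tested. The bases just after the start were found in 1 GENCODE transcript each for Hk2 and P4ha1. For Egln3 and for either Vegfa start they were found in 0. Some annotated starts, such as that of the P4ha1 window, lie inside the span of the gene. Of the 37 genes, 35 had 1 or more entries, with 53 promoters in all, and 41 of the 53 (77.4%) held the core, against 38.6% of all 32851 promoters. Windows of the same gene can overlap, as for Eno1 and Aldoa, so 1 core can be counted more than once. By gene, 32 of the 35 held a core in 1 or more windows, and no such share was computed over all genes. The core overlaps the E-box CACGTG, which 9.43% of these promoters and 6.02% of all promoters held. The TCF/LEF letters CTTTGAT or CTTTGTT, on either strand, were in 1 of 53 promoters (1.89%), against 8.06% of all, and the cAMP response core TGACG, on either strand, in 18.9% against 17.8%. These shares are not adjusted for base composition, and a match is not a binding site. The genes were listed as glycolysis and HIF pathway genes, so their share with the HIF core says nothing about these samples.

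The comparison of dDAVP with vehicle asks which of these genes moved with V2 receptor activation. With control siRNA, 2 of 36 were higher with dDAVP and 0 were lower, against 1.91% of all genes called higher, 0.915% called lower and 2.83% in either direction. They were Hk2 and Ndrg1. With Ctnnb1 siRNA, 1 of 36 was higher, Ndrg1, and 0 were lower, against 2.08%, 0.697% and 2.78% of all genes. Fold changes were positive for 15 of 36 genes with each siRNA, against 48.7% of all genes with control siRNA and 48.5% with Ctnnb1 siRNA, and for 12 of 36 (33.3%) with both, against 28.7%. Without replicate 3 of Ctnnb1 siRNA with dDAVP, 3 genes were called with control siRNA, against 5.01% of all genes in that fit, and 2 with Ctnnb1 siRNA, against 2.92%.

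Ndrg1 (chr15:66929318-66969641) had 82.4, 83.2 and 89.2 CPM with dDAVP and control siRNA, against 72.0, 64.4 and 63.0 CPM with vehicle and control siRNA. With Ctnnb1 siRNA it had 99.6, 95.4 and 100.7 CPM with dDAVP, against 85.9, 74.2 and 82.7 CPM with vehicle. The dDAVP libraries were above their vehicle libraries with either siRNA, and Ctnnb1 siRNA with dDAVP was the highest group. The rise was 1.28-fold with control siRNA (log2 0.35, SE 0.0646, adjusted p = 0.00574) and 1.22-fold with Ctnnb1 siRNA (log2 0.29, SE 0.0641, adjusted p = 0.0239). The call with control siRNA held in 21 of 23 alternative settings and was lost on log2 of TPM plus 1 and plus 0.1. The call with Ctnnb1 siRNA was lost without replicate 2 or 3 of Ctnnb1 siRNA with vehicle (adjusted p 0.15 and 0.0575), without replicate 1 of Ctnnb1 siRNA with dDAVP (0.0656), and in the fit of those 2 groups alone (0.067). It was also lost on each of the 3 TPM scales, and held in 16 of 23 settings.

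Hk2, whose values are given above, was 1.28-fold higher with dDAVP than with vehicle under control siRNA (log2 0.36, SE 0.0881, adjusted p = 0.0407). The dDAVP libraries lay above the vehicle libraries with either siRNA, and with Ctnnb1 siRNA the log2 fold change was 0.23 (SE 0.0867, adjusted p = 0.212). The call with control siRNA was lost without replicate 2 or 3 of control siRNA with vehicle (adjusted p 0.162 and 0.171), or replicate 1, 2 or 3 of control siRNA with dDAVP (0.0986, 0.073 and 0.124), or of Ctnnb1 siRNA with vehicle (0.0513, 0.0646 and 0.0535). It held in 11 of 23 alternative settings.

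Of the 15 HIF pathway genes, Ndrg1 among them, 0 were called lower with dDAVP in either comparison. Their median log2 fold change with dDAVP was -0.09 with control siRNA and -0.04 with Ctnnb1 siRNA, beside -0.00422 and -0.00493 over all genes. Fold changes were positive with both siRNAs for 2 of the 15, against 28.7% of all genes. The sign of both medians held in all 23 alternative settings, with ranges of -0.137 to -0.0117 and -0.128 to -0.0092. The median over all genes is not given beside each setting, so a kept sign need not mean a kept difference from it. For the glycolytic enzymes the medians were 0.02 with control siRNA and 0.04 with Ctnnb1 siRNA, though the sign of both turned in some settings, with ranges of -0.04 to 0.05 and -0.00125 to 0.06. P4ha1 was lower in every dDAVP library than in every vehicle library with either siRNA, with adjusted p of 0.0611 with control siRNA (log2 -0.27) and 0.157 with Ctnnb1 siRNA (log2 -0.21). The 3 dDAVP libraries lay above the 3 vehicle libraries for 4 genes and below for 5 with control siRNA, against 10.2% and 12% of all genes. With Ctnnb1 siRNA the counts were 4 above and 4 below, against 9.54% and 8.3%.

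**Figure D4:**
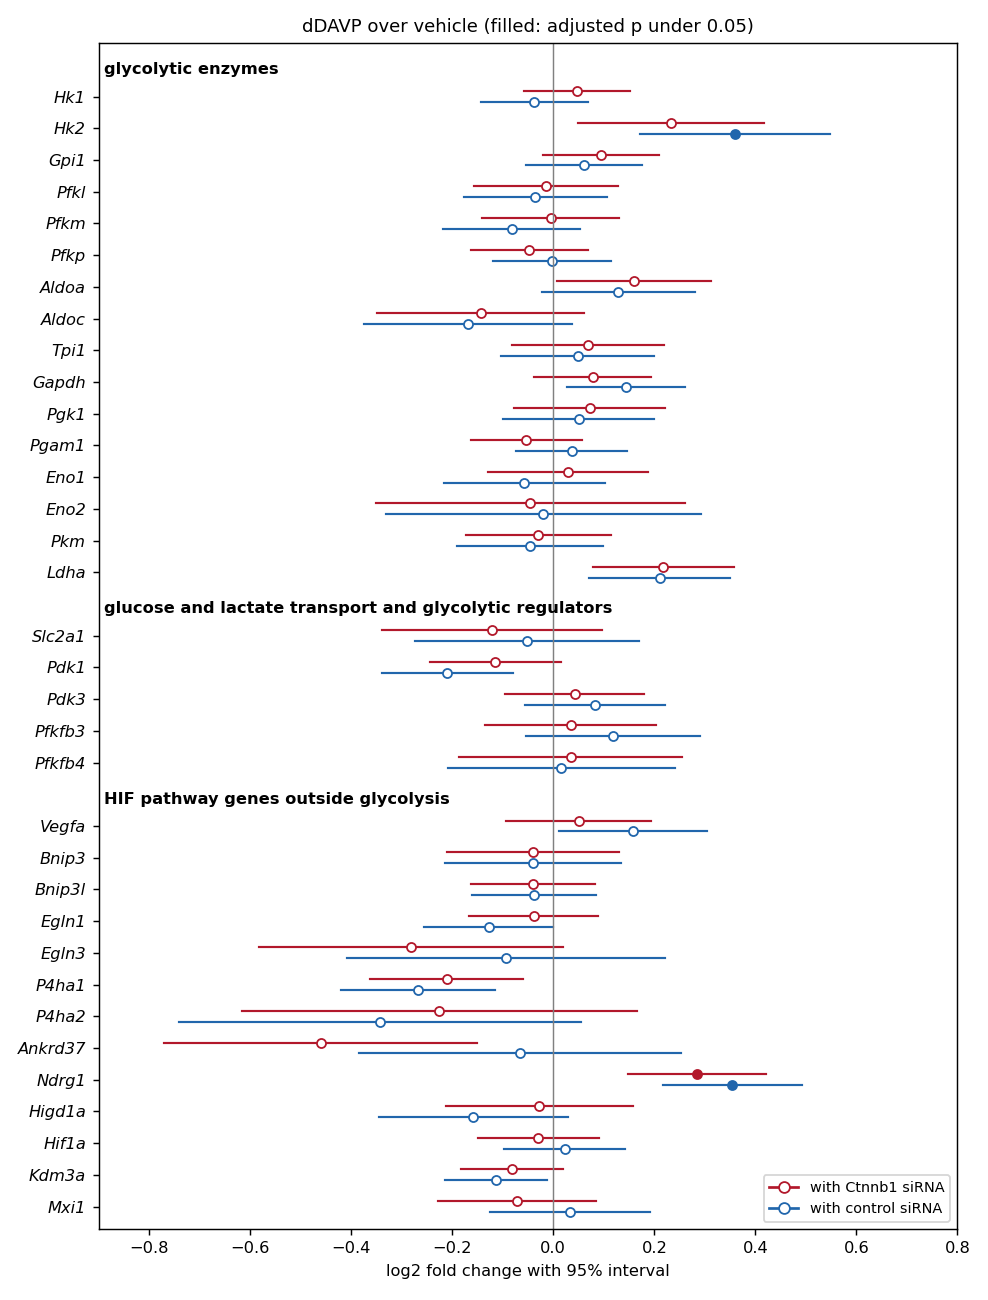
Log2 fold change (x axis, with 95% interval) of dDAVP over vehicle for each tested gene, with Ctnnb1 siRNA in dark red and with control siRNA in blue. Filled points have an adjusted p under 0.05; Adm and Car9 were left out because of their wide intervals. The filled points are Ndrg1 with both siRNAs and Hk2 with control siRNA.

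Averaged over both siRNAs, a contrast also added after the values were seen, dDAVP raised 3 of 36 genes and lowered 2, against 4.33% and 2.54% of all genes and 6.86% in either direction. The genes higher were Ndrg1 (1.25-fold, adjusted p = 0.000308), Hk2 (1.23-fold, adjusted p = 0.00741) and Ldha (1.16-fold, adjusted p = 0.00952), and those lower were P4ha1 (0.847-fold, adjusted p = 0.00766) and Pdk1 (0.893-fold, adjusted p = 0.0315). Ndrg1, Ldha and P4ha1 passed in all 22 alternative settings, Hk2 in 20 and Pdk1 in 15. Ldha, the lactate dehydrogenase subunit, had 360, 346 and 343 CPM with dDAVP and Ctnnb1 siRNA, against 290, 296 and 317 CPM with vehicle and Ctnnb1 siRNA. With control siRNA it had 290, 327 and 312 CPM with dDAVP, against 294, 266 and 243 CPM with vehicle. The treatments overlapped with control siRNA and not with Ctnnb1 siRNA.

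Pdk1 had 104, 109 and 108 CPM with dDAVP and Ctnnb1 siRNA, against 110, 118 and 119 CPM with vehicle and Ctnnb1 siRNA. With control siRNA its 3 dDAVP libraries lay between 95.9 and 103 CPM, against 127, 108 and 110 CPM with vehicle. All dDAVP libraries were below their vehicle libraries. The Pdk1 call was lost when any one of 6 libraries was left out (adjusted p 0.0736 to 0.0945), namely replicate 1 of control siRNA with vehicle, 1 and 3 of control siRNA with dDAVP, 2 and 3 of Ctnnb1 siRNA with vehicle and 1 of Ctnnb1 siRNA with dDAVP.

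Whether the effect of dDAVP differed between the siRNAs was tested as an interaction. It was called for 0 of 36 genes by edgeR, and 0 had an unadjusted p under 0.05, against 5.02% of all genes; DESeq2 and voom also called 0 of these genes. The lowest unadjusted p was that of Ankrd37 (0.0773, log2 -0.40, SE 0.209). The calls of Hk2 with one siRNA and not with the other are therefore not shown to differ.

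The balance within small gene families was described in TPM. Shares of other families were also computed and are not shown, and exact tests were run on the Hk2 and Egln3 shares only. The shares come from the same libraries as the calls of Hk2, Egln3 and Bnip3 above, so they are not separate support. Hk2 made up 24.7% ± 2.52 of the summed Hk1 and Hk2 level with Ctnnb1 siRNA and dDAVP, 22.5% ± 0.357 with Ctnnb1 siRNA and vehicle, 21.6% ± 0.48 with control siRNA and dDAVP and 17.3% ± 0.509 with control siRNA and vehicle (SD, n = 3 each). The groups did not overlap in any of the 4 comparisons, for which the two-sided exact permutation test gave p = 0.1, the smallest that 3 against 3 libraries allow. Egln3 made up 30.3% ± 3.03 of the summed Egln1 and Egln3 level with Ctnnb1 siRNA and dDAVP and 34.1% ± 3.3 with Ctnnb1 siRNA and vehicle, against 23.7% ± 1.71 with control siRNA and dDAVP and 23.2% ± 2.67 with control siRNA and vehicle. The exact p was 0.1 for both siRNA comparisons, 0.3 for dDAVP with Ctnnb1 siRNA and 0.7 for dDAVP with control siRNA. Egln2, of the same family, was left out of this sum and was at 38.2 to 42.2 TPM by group. The Egln3 percentages are therefore not shares of the whole family. Bnip3 made up 26.8% and 26.7% of the Bnip3 and Bnip3l level with Ctnnb1 siRNA, with dDAVP and vehicle, against 22.5% with control siRNA under either treatment.

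**Figure D5:**
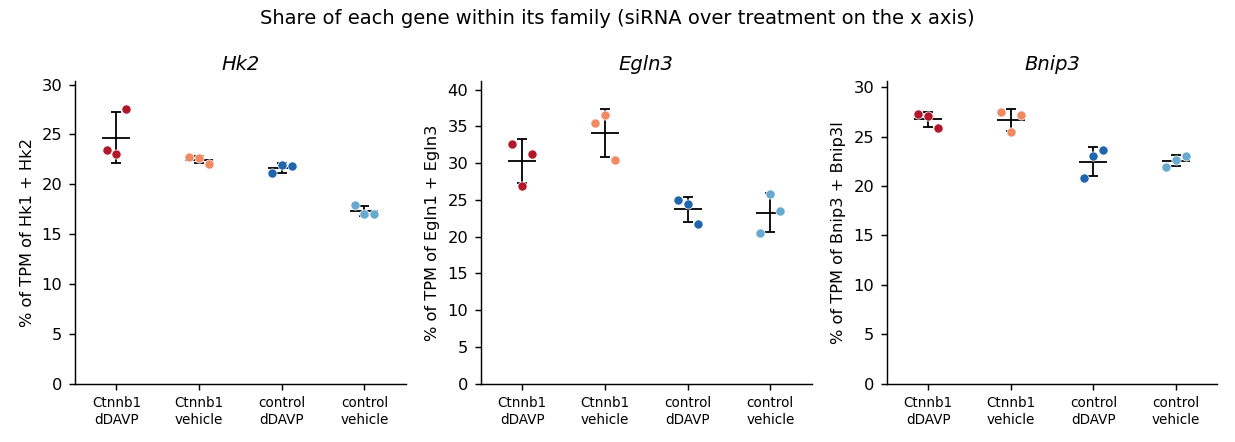
Share (y axis, % of summed TPM, from 0) of Hk2 in Hk1 plus Hk2, Egln3 in Egln1 plus Egln3 and Bnip3 in Bnip3 plus Bnip3l. Points are libraries, with the group mean and SD in black. Egln2 is not in the Egln sum. The Hk2 share is lowest with control siRNA and vehicle, at 17.3%, and the Egln3 and Bnip3 shares are higher with Ctnnb1 siRNA than with control siRNA.

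Other genes of these pathways were counted over whole lists. In the 4 comparisons within one siRNA or one treatment, 0 genes were called among 14 further genes of glycolysis and gluconeogenesis, 8 of sugar and monocarboxylate transport, 11 of pyruvate entry to mitochondria and 12 of HIF subunits and oxygen sensing. Of all genes, 2.83% were called with dDAVP under control siRNA and 2.78% under Ctnnb1 siRNA, and 0.43% with Ctnnb1 siRNA under vehicle and 0.267% under dDAVP. Under vehicle, Ctnnb1 siRNA gave positive fold changes for 6 of 14, 3 of 8, 2 of 11 and 6 of 12 genes of these lists. Under dDAVP it did so for 11, 6, 5 and 5, in the same order. Among 25 further HIF targets 12 were positive under vehicle and 16 under dDAVP, and among 9 regulators of glycolytic genes 6 and 2. The shares of all genes were 49% and 50.4%. In the average over both siRNAs, where 6.86% of all genes were called, dDAVP raised 2 and lowered 1 of the 14 glycolysis genes, namely Pfkfb2 (log2 0.19, adjusted p = 0.0156), Pcx (log2 0.21, adjusted p = 0.0191) and, lower, the pyruvate kinase Pklr (log2 -0.22, adjusted p = 0.0298). It also raised the monocarboxylate carriers Slc16a6 (log2 0.28, adjusted p = 0.0193) and Slc16a1 (log2 0.14, adjusted p = 0.036) and the pyruvate dehydrogenase subunit Pdha1 (log2 0.12, adjusted p = 0.0479), and called 0 of the 12 HIF subunit and oxygen sensing genes. Of 25 further HIF targets, dDAVP raised Car12, a carbonic anhydrase, with control siRNA (log2 0.31, adjusted p = 0.0426) and with Ctnnb1 siRNA (log2 0.42, adjusted p = 0.00626), and lowered Ccng2 with control siRNA (log2 -0.27, adjusted p = 0.00523). Cited2, an inhibitor of HIF that competes for its coactivators, was lower with Ctnnb1 siRNA under dDAVP (log2 -0.39, adjusted p = 0.0125), at 41.3 ± 0.963 CPM with Ctnnb1 siRNA against 54.0 ± 2.76 CPM with control siRNA (SD, n = 3 each). Of 9 regulators of glycolytic genes, Myc was higher with dDAVP under control siRNA (log2 0.45, adjusted p = 0.00674), and Txnip, which limits glucose uptake, was higher with Ctnnb1 siRNA under dDAVP (log2 0.30, adjusted p = 0.0494).

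The pentose phosphate pathway, which branches from glycolysis after the hexokinase step, was also counted. Of its 8 genes, 3 were higher with dDAVP under control siRNA, against 1.91% of all genes, namely H6pd (log2 0.59, adjusted p = 1.22e-05), G6pdx (log2 0.29, adjusted p = 0.00327) and Pgd (log2 0.24, adjusted p = 0.0253), and 2 under Ctnnb1 siRNA, against 2.08% of all genes, H6pd (log2 0.53, adjusted p = 4.38e-05) and Pgd (log2 0.32, adjusted p = 0.00318). H6pd, the hexose-6-phosphate dehydrogenase of the endoplasmic reticulum, was at 129 ± 3.32 CPM with dDAVP and Ctnnb1 siRNA, against 88.7 ± 4.69 CPM with vehicle and Ctnnb1 siRNA. With control siRNA it was at 131 ± 9.41 CPM with dDAVP and 87.0 ± 0.851 CPM with vehicle (SD, n = 3 each). Of 9 glycogen genes, Pygb, a glycogen phosphorylase, was higher with dDAVP under Ctnnb1 siRNA (log2 0.30, adjusted p = 0.0122). Ctnnb1 siRNA gave positive fold changes for 7 of 8 pentose phosphate genes with vehicle and 5 with dDAVP. It did so for 8 of 9 glycogen genes under each treatment. In the average over both siRNAs, dDAVP was called for 3 higher of 8 pentose phosphate genes, 2 higher of 9 glycogen genes, 2 higher and 1 lower of 25 further HIF targets and 3 higher and 1 lower of 9 regulators. Of all genes, 4.33% were called higher and 2.54% lower in that average. In the average over both treatments, Ctnnb1 siRNA was called for 1 of 25 further HIF targets, Cited2 (lower, log2 -0.26, adjusted p = 0.00339), and 1 of 9 regulators, Txnip (higher, log2 0.18, adjusted p = 0.0325), and for 0 genes of the other 6 lists of the wider pathways. There 0.939% of all genes were called higher and 0.909% lower.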

How the data were processed

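RNA sequencing of 12 libraries, 3 in each of 4 groups, was analysed from the authors' deposited table. Per the file headers it holds unnormalised read counts for each library, which are whole numbers. It also holds TPM values that the authors deposited, scaled by transcript length, used for levels between genes and for alternatives. Per the submitters' processing notes, FastQC, Trimmomatic, HISAT2, StringTie and DESeq2 were used with GRCm38 (mm10). Libraries were stranded per the labels' protocols; whether counting used the strand is not given in the sources used here, so reads of overlapping genes may not be told apart.

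Counts were fitted in R 4.3.3 with edgeR 4.0.16: the filterByExpr filter, run on the group, kept 16508 genes (99.97% of reads). After TMM scaling, a robust quasi-likelihood test used all 12 libraries, with 1 coefficient per group. P-values were adjusted by Benjamini-Hochberg over all tested genes, and calls needed an adjusted p under 0.05. CPM values are scaled by TMM. Sums and shares were compared by exact permutation. Alternatives used DESeq2 1.42.0 and limma 3.58.1 (voom, and log2 of TPM plus 1 or 0.1), other scalings and filters, and left out each library in turn. The averages over treatments or siRNAs and TPM without small structural RNA were added after the data were seen. The procedure was tested on simulated data. Replicate numbers did not pair the libraries.

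The 37 genes and the other lists were chosen with earlier results of these data known. Genes called in any of the 4 group comparisons or the interaction are given with every library's value, as are most of those called only in an average; other genes are given by levels or ranges, and the other lists by counts with up to 4 called genes named per list. Coordinates and promoters are from RefSeq on GRCm38.p6.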

Additional observations from a re-analysis of the deposited data

How the results depend on the processing

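No called gene changed direction under any setting run. The numbers of genes called did move, and where they did the cause was not tested. The share of all genes called moved as well: in the order of the 4 group comparisons below it was 5.15%, 5.14%, 1.17% and 1.92% with DESeq2 and 7.88%, 4.08%, 1.53% and 1.82% with voom, and in the averages with voom it was 5.6% for the siRNA and 11.2% for dDAVP. With dDAVP and control siRNA, 2 genes were called in the analysis reported, 5 with DESeq2, 5 with voom, 1 with a replicate block, 0 on log2 of TPM plus 1, 0 on log2 of TPM plus 0.1 and 1 on TPM without small structural RNA; leaving out 1 library gave 1 to 3. With dDAVP and Ctnnb1 siRNA, 1 was called, 2 with DESeq2, 4 with voom and 0 on each of the 3 TPM scales; leaving out 1 library gave 0 to 2. The fit of those 2 groups also called 1, Ankrd37 lower in place of Ndrg1 higher. With Ctnnb1 siRNA and vehicle, 4 were called, 10 with DESeq2, 10 in the fit of 2 groups, 10 with voom, 2 with the replicate block, 0 on both TPM pseudocounts and 1 on TPM without small structural RNA; leaving out 1 library gave 0 to 8. With Ctnnb1 siRNA and dDAVP, 1 was called, 6 with DESeq2, 6 with voom, 2 with upper-quartile scaling, 2 with no filter, 2 with a filter at 1 CPM in 3 libraries and a mean of 20 reads, and 0 in the fit of 2 groups and on each of the 3 TPM scales; leaving out 1 library gave 0 to 3. Averaged over treatments the siRNA called 9, 17 with voom and 3 on both TPM pseudocounts, and 8 to 11 with a library left out. Averaged over siRNAs dDAVP called 5, 9 with voom, and 4 to 7 with a library left out. The interaction called 0 in every setting run. Replicate numbers did not pair the libraries (r between -0.09 and 0.07 over 18 same-number pairs, and 3 of 12 libraries correlated best with their own number); the replicate block changed the calls of Hk2 with dDAVP (adjusted p = 0.0512), Vegfa (0.0707) and Egln3 (0.0671) with siRNA and vehicle, and Pdk1 in the average (0.055). Genes at under 1 TPM, Adm, Car9 and Slc16a3, had too few reads for small changes to be detectable.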
